A study of Mus musculus with 3 samples.

Results

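The vascular endothelial growth factor (VEGF) system was followed through 9 mouse genes, taken by name: the receptors Kdr, Flt1 and Flt4, the co-receptors Nrp1 and Nrp2, and the ligands Vegfa, Vegfb, Vegfc and Pgf. All 9 were found among the 23397 genes measured, and all 9 were among the 11080 called expressed, with a level of 1 or more in any library. Levels are FPKM, that is fragments counted per kilobase of a transcript, scaled to library depth. The RNA came from endothelial cells that mouse embryonic stem (ES) cells form in embryoid bodies, which are floating aggregates of differentiating cells. Cells were sorted at day 4.75 as Tie2 and CD31 positive and CD41 negative. There was 1 library each of ES cells labelled Gata12KO (a knockout of Gata1 and Gata2), of SclKO (a knockout of Scl, whose current symbol is Tal1) and of wild type (WT). All 3 were grown and sorted under the same protocol, and whether each genotype is a single clone is not given by the labels. The study looks for genes that depend on Scl, a factor required for blood formation, or on Gata1 and Gata2, zinc-finger partners of Scl in blood cells.

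VEGF ligands are secreted dimers that bind receptor tyrosine kinases on endothelial cells and their precursors. VEGF-A acts mainly through VEGFR2 (Kdr), which drives the growth, survival and migration of endothelium and, in the early mesoderm, marks the progenitors of blood and vessels. VEGFR1 (Flt1) binds VEGF-A tightly with a weak kinase and also takes VEGF-B and placental growth factor (Pgf), VEGFR3 (Flt4) takes VEGF-C and VEGF-D, and the neuropilins present certain VEGF forms to the kinases and bind class 3 semaphorins.

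With 1 library per genotype no difference had a replicate check, no p-value is given, and each value describes these libraries only. Depth, as implied by the deposited confidence bounds, was 50.3M fragments in the library labelled Gata12KO, 28.3M in SclKO and 31.6M in WT. The bounds hold no variation between replicate libraries. They matched counting error within 1% for 69.0%, 71.1% and 71.5% of the entries fitted, in that order. Tal1 had 38.7 FPKM in the library labelled Gata12KO, 1.59 in SclKO and 51.0 in WT. Gata1 had 5.66 FPKM in the library labelled Gata12KO and 4.64 in WT, with SclKO listed at 0, and Gata2 had 44.9 in the library labelled Gata12KO, 5.81 in SclKO and 12.0 in WT. Neither targeted gene of the library labelled Gata12KO was below WT, and since each value spans the whole transcript a deleted exon would not show, so that library is named by its label throughout. The Y-linked Ddx3y, added after its values were seen, had 11.8 FPKM in the library labelled Gata12KO, 8.17 in SclKO and 1.25 in WT, so the lines also differed outside the targeted genes. All 8 defining endothelial markers (Pecam1, Tek, Cdh5, Tie1, Emcn, Esam, Cldn5, Eng) were above 1 FPKM in every library, and their summed level was 456 FPKM in the library labelled Gata12KO, 220 in SclKO and 428 in WT. By the 2-fold call rule given below, 4 of 8 were lower in SclKO than in WT, beside 4.24% of expressed genes. Tek and Emcn were lower without a call. Eng (28.8 FPKM in the library labelled Gata12KO, 46.0 in SclKO and 28.2 in WT) and Pecam1 (66.5, 50.4 and 48.3 FPKM) were instead higher in SclKO than in WT, without a call.

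Flt1 was the gene nearest to Kdr in its pattern over the 3 libraries, and the Vegfa entries of the files have a pair of separate starts. The 250 bases before the listed starts of these genes are therefore shown. They are RefSeq sequences of build GRCm38.p6, printed 5′ to 3′, and a window was found for each of the 9 genes. Capitals mark every match, on either strand, to the GATA core GATAA, the E-box CANNTG that Scl and its partners are known to bind, and the hypoxia core ACGTG.
Kdr, chr5:75978456-75978705, reverse strand: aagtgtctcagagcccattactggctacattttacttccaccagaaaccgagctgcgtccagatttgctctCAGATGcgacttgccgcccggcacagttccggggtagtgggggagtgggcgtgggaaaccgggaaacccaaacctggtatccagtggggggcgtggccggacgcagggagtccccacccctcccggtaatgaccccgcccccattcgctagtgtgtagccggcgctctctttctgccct
Flt1, chr5:147726012-147726261, reverse strand: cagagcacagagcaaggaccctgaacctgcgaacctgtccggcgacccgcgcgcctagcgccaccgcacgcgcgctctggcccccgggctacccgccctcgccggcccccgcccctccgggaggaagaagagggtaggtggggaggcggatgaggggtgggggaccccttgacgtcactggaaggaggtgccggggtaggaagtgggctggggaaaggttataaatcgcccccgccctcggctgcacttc
Vegfa upstream start, chr17:46032378-46032627, reverse strand: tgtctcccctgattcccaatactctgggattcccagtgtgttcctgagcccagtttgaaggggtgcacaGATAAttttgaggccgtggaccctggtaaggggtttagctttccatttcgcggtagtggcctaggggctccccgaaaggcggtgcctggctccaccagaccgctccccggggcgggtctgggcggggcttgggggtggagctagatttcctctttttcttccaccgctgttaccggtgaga
Vegfa downstream start, chr17:46025164-46025413, reverse strand: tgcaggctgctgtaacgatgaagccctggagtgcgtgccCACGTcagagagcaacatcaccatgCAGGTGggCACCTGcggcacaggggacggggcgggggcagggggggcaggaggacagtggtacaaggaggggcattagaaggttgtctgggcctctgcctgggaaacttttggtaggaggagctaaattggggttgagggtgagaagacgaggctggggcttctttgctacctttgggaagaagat

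The Kdr window held 1 E-box, CAGATG, 179 bases before the start, and neither of the other motifs. The Flt1 window held none of the 3. The upstream Vegfa window held 1 GATA core 181 bases before the start, and the downstream window held 2 E-boxes, 186 and 178 bases before the start, and 1 hypoxia core 211 bases before it. The downstream window is partly exon. By mm9 coordinates its start is 46162112, and a 197 nt exon of the entries with the upstream start spans 46162296 to 46162492. The hypoxia core lies inside that exon, and the E-box 186 bases before the start spans the end of the exon. Of 11 windows of the 9 genes, 6 held an E-box, 1 the GATA core and 1 the hypoxia core, while of all 32851 windows of this length 66.2% held an E-box, 22.6% the GATA core and 16.6% the hypoxia core. The ETS core GGAA, not marked, was in 9 of the 11 windows and in 93.45% of all windows. The 2 Vegfa windows lie 7214 bases apart, the same distance as between the Vegfa starts in the deposited files.

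Kdr and Flt1 were higher in the library labelled Gata12KO than in both others, and Flt4 had the same order of levels with smaller differences. Kdr (chromosome 5, 76329299 to 76374453 on the reverse strand of mm9, 30 exons) encodes the main signalling receptor of VEGF-A. It had 96.3 FPKM in the library labelled Gata12KO (bounds 95.1 to 97.5), 31.6 in SclKO (30.7 to 32.6) and 42.1 in WT (41.1 to 43.1). The 3 ranges were apart, with the library labelled Gata12KO highest and SclKO lowest. Kdr was 2.29-fold higher in the library labelled Gata12KO than in WT and 3.04-fold higher than in SclKO, and SclKO held 1.33-fold less than WT.

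Flt1 (chromosome 5, 148373772 to 148537564 on the reverse strand, 30 exons) encodes the tight-binding receptor that also takes up VEGF-A as a decoy. It had 19.6 FPKM in the library labelled Gata12KO (bounds 19.1 to 20.1), 6.03 in SclKO (5.65 to 6.40) and 8.72 in WT (8.30 to 9.15). These ranges were apart in the same order as for Kdr, with 2.25-fold more in the library labelled Gata12KO than in WT and 3.26-fold more than in SclKO. The files list 1 Flt1 entry, the full-length receptor, so its soluble form was not measured apart. Within each library, which takes scaling between libraries out of the comparison, the ratio of Flt1 to Kdr FPKM was 0.204 in the library labelled Gata12KO (0.198 to 0.210), 0.191 in SclKO (0.177 to 0.204) and 0.207 in WT (0.196 to 0.219). The counting ranges of these 3 ratios overlapped.

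Flt4 (chromosome 11, 49423181 to 49466241 on the forward strand, 30 exons), the receptor of VEGF-C and of lymphatic growth, had 11.9 FPKM in the library labelled Gata12KO (bounds 11.5 to 12.3), 6.80 in SclKO (6.39 to 7.21) and 9.53 in WT (9.06 to 9.99). Its ranges were also apart, yet no pair of libraries differed by 2-fold. The ratio of Flt4 to Kdr was 0.123 in the library labelled Gata12KO (0.119 to 0.128), below the 0.215 of SclKO (0.200 to 0.229) and the 0.226 of WT (0.214 to 0.239).

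Set against other endothelial transcripts of the same library, Kdr took different places. The ratio of Kdr to Cdh5 (VE-cadherin, a junction protein that partners VEGFR2) was 0.682 in the library labelled Gata12KO, 0.738 in SclKO and 0.363 in WT. The ratio of Kdr to Tek (the Tie2 used in the sort) was 1.53 in the library labelled Gata12KO, 0.747 in SclKO and 0.670 in WT. The ratio of Kdr to Pecam1 (the CD31 used in the sort) was 1.45 in the library labelled Gata12KO, 0.628 in SclKO and 0.871 in WT. So the library labelled Gata12KO held more Kdr than WT per unit of all 3 transcripts, whereas SclKO held more than WT per Cdh5 or Tek and less per Pecam1. The comparison transcripts were chosen after earlier results were known.

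**Figure D1:**
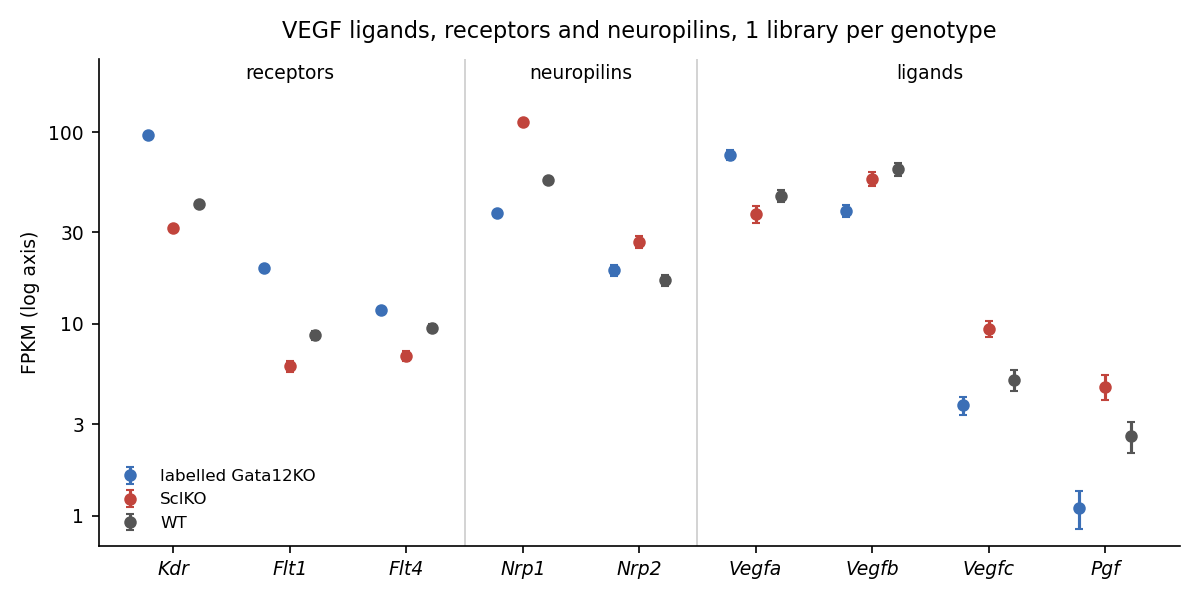
FPKM of the 9 genes (log axis) in the library labelled Gata12KO, in SclKO and in WT, with 1 point per library and bars for the deposited bounds. Kdr stands at 96.3 FPKM in the library labelled Gata12KO, 31.6 in SclKO and 42.1 in WT, and Nrp1 has another order, with 38.0, 113 and 56.4 FPKM.

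Nrp1 had the opposite order of levels to Kdr. Nrp1 (chromosome 8, 130882973 to 131029375 on the forward strand, 17 exons), the co-receptor that presents heparin-binding VEGF-A to VEGFR2 and also binds Sema3a, had 38.0 FPKM in the library labelled Gata12KO (bounds 37.3 to 38.8), 113 in SclKO (111 to 115) and 56.4 in WT (55.3 to 57.5). SclKO was highest and the library labelled Gata12KO lowest, with ranges apart. SclKO held 2.01-fold more Nrp1 than WT by FPKM, a log2 ratio of 0.99 on the scale with 1 FPKM added, just under the 2-fold limit used for calls. The library labelled Gata12KO held 2.98-fold less Nrp1 than SclKO. The ratio of Nrp1 to Kdr was 0.395 in the library labelled Gata12KO (0.386 to 0.404), 3.58 in SclKO (3.46 to 3.69) and 1.34 in WT (1.30 to 1.38), so that Nrp1 outnumbered Kdr per length in SclKO and WT and not in the library labelled Gata12KO.

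Nrp2 (chromosome 1, 62749891 to 62865266 on the forward strand), the co-receptor of VEGF-C and of Sema3f, is given as 6 entries. Their sum was 19.1 FPKM in the library labelled Gata12KO (bounds 17.8 to 20.3), 26.8 in SclKO (24.9 to 28.7) and 17.0 in WT (15.8 to 18.1). The range of SclKO lay above the others, and those of the library labelled Gata12KO and WT overlapped. The entries differ at a small exon that starts at 62832855 and is 21 or 36 nt long. Entries with the 36 nt form held 36.6% of Nrp2 FPKM in the library labelled Gata12KO (6.97 FPKM), 6.60% in SclKO (1.77 FPKM) and 0.00387% in WT (0.000656 FPKM). The last exon and the exon of 51 nt differed less between libraries. Entries with the exon of 51 nt held 55.0% in the library labelled Gata12KO, 55.0% in SclKO and 64.5% in WT, and entries ending in the distal last exon held 91.0%, 92.8% and 95.3% in that order.

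The 9 mesenchyme and smooth muscle markers, none at 0 in any library, summed to 34.8 FPKM in the library labelled Gata12KO, 155 in SclKO and 84.9 in WT. That sum had the same order as Nrp1, but Pdgfrb and Foxf1 were lowest in WT and Tagln was highest there. By the 2-fold call rule given below, 8 of 9 were lower in the library labelled Gata12KO than in SclKO, beside 3.75% of expressed genes. Tagln was lower without a call. Cardiomyocyte markers summed to 14.1 FPKM in the library labelled Gata12KO, 41.1 in SclKO and 22.2 in WT, with Myh6, Myh7, Actn2 and Ttn of its 9 genes below 1 FPKM in every library. Tnni1 (3.68, 26.3 and 10.2 FPKM in that order) was most of the SclKO sum. Myl7 (4.56, 2.53 and 2.11 FPKM) was instead highest in the library labelled Gata12KO and Actc1 (0.577, 0.920 and 1.79 FPKM) in WT. Endoderm and epithelial markers summed to 46.9, 142 and 95.3 FPKM in that order, with Afp, Apoa1, Foxa2 and Cdh1 of 9 below 1 FPKM in every library and Afp listed at 0 in the library labelled Gata12KO and SclKO. Most of each sum was Krt8 (17.1, 77.5 and 40.8 FPKM) and Krt18 (18.1, 59.1 and 45.2 FPKM). Sox17 (7.93, 2.09 and 4.34 FPKM) and Ttr (1.19, 0.968 and 2.11 FPKM) were instead lowest in SclKO. The part of such cells in the Nrp1 values was not tested, and in sorted bulk cells fewer cells of a type and less RNA per cell cannot be told apart.

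Among the ligands, Vegfa followed the order of Kdr, Vegfc and Pgf that of Nrp1, and Vegfb was lowest in the library labelled Gata12KO. Vegfa (chromosome 17, 46153943 to 46169326 on the reverse strand), the ligand on which vessel formation depends, is given as 6 entries that summed to 76.0 FPKM in the library labelled Gata12KO (bounds 71.4 to 80.6), 37.3 in SclKO (33.5 to 41.2) and 46.5 in WT (43.2 to 49.8). The 3 ranges were apart. The library labelled Gata12KO held 2.04-fold more than SclKO and 1.64-fold more than WT, and SclKO held 1.25-fold less than WT, a direction that turned (log2 ratio 0.28 in place of -0.31) when the entry with the highest mean was used in place of the sum.

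The division of Vegfa among its entries differed between libraries. Of the 6 entries, 3 start at 46169326 and hold the upstream exons, and 3 start 7214 nt downstream at 46162112, with a first exon of 720 nt of which 643 nt lie in an intron of the longer entries. Each start has a form with both the 132 nt exon (46157940 to 46158071) and the 72 nt exon (46159226 to 46159297), a form with the 132 nt exon alone and a form with neither. These are the splice choices of VEGF188, VEGF164 and VEGF120. The downstream-start entries lack the upstream exons of 1087, 49 and 197 nt, so they share that choice alone and not the whole structure. The exons of 132 and 72 nt encode heparin-binding stretches of VEGF-A, which hold the longer forms near the cells that make them. Entries with the downstream start held 45.3% of Vegfa FPKM in the library labelled Gata12KO (34.4 FPKM), 26.4% in SclKO (9.86 FPKM) and 68.8% in WT (32.0 FPKM). Entries with the upstream start had 41.6 FPKM in the library labelled Gata12KO, 27.5 in SclKO and 14.5 in WT, so for these alone SclKO stood above WT.

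By splicing, the VEGF164 type held 60.2% of Vegfa FPKM in the library labelled Gata12KO (45.8 FPKM), 67.2% in SclKO (25.1 FPKM) and 35.6% in WT (16.6 FPKM). The VEGF120 type held 18.5% in the library labelled Gata12KO, 14.6% in SclKO and 57.6% in WT. The VEGF188 type held 21.3%, 18.2% and 6.84% in that order. These types name the splice choice over both starts. In WT the VEGF120 type was 1 entry, which lacks the upstream exons and so is not VEGF120 itself. This short downstream-start form without either exon had 4.89 FPKM in the library labelled Gata12KO (4.20 to 5.58), 0.467 in SclKO (0.236 to 0.697) and 26.8 in WT (25.4 to 28.2). In WT the upstream-start entries with both exons or neither were near 0, with upper bounds of 0.0189 and 0.0201 FPKM, so all but a trace of the upstream-start FPKM of WT stood in the VEGF164 type. Reads in exons shared between entries were divided among them by the authors' quantification. How far the bounds take in that division, for Nrp2 and Vegfb too, was not tested. The libraries were made of total RNA, and the effect of unspliced RNA on the entry with the intronic stretch was not tested.

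**Figure D2:**
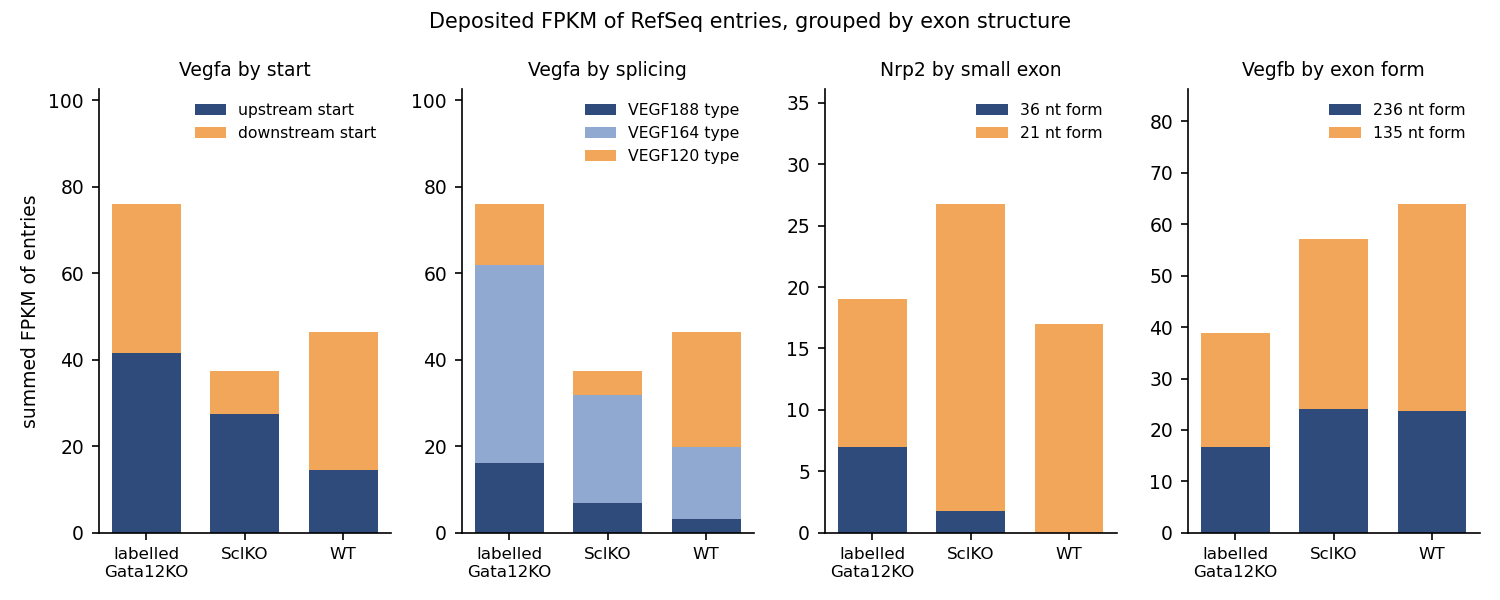
Summed FPKM of the RefSeq entries of Vegfa, Nrp2 and Vegfb, stacked by exon structure, for the library labelled Gata12KO, SclKO and WT. The downstream Vegfa start holds 45.3%, 26.4% and 68.8% of Vegfa in that order, and the 36 nt form of the small Nrp2 exon 36.6%, 6.60% and 0.00387%.

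Vegfb (chromosome 19, 7056962 to 7062141 on the reverse strand), a ligand of Flt1, had 38.9 FPKM in the library labelled Gata12KO (bounds 36.0 to 41.8), 57.1 in SclKO (52.4 to 61.9) and 63.9 in WT (59.2 to 68.6). The library labelled Gata12KO was lowest, and the ranges of SclKO and WT overlapped. Its 2 entries differ by 101 nt in 1 exon, and the entry with the shorter, 135 nt form held 57.0% in the library labelled Gata12KO, 57.9% in SclKO and 63.0% in WT. The ratio of Vegfa to Vegfb was 1.95 in the library labelled Gata12KO (1.77 to 2.14), 0.654 in SclKO (0.567 to 0.740) and 0.727 in WT (0.652 to 0.802), so Vegfa had the higher FPKM in the library labelled Gata12KO and Vegfb in the others. The genes differ in length (3458 and 1181 nt), and the trend of ratios with length, library labelled Gata12KO against WT, was 0.03 for Vegfa and -0.43 for Vegfb. The Vegfa sum also includes the downstream-start entries, 32.0 FPKM in WT.

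Vegfc (chromosome 8, 55162886 to 55271808 on the forward strand, 7 exons), the main ligand of Flt4, had 3.77 FPKM in the library labelled Gata12KO (bounds 3.35 to 4.19), 9.46 in SclKO (8.57 to 10.3) and 5.11 in WT (4.50 to 5.73). Pgf (chromosome 12, 86507591 to 86518235 on the reverse strand, 7 exons), which binds Flt1 and neuropilins and not Kdr, had 1.11 FPKM in the library labelled Gata12KO (0.855 to 1.36), 4.70 in SclKO (4.00 to 5.39) and 2.61 in WT (2.12 to 3.10). Both were highest in SclKO and lowest in the library labelled Gata12KO, with ranges apart, the order also shown by the sum of the mesenchyme markers above, though not by each marker. Pgf rests on the fewest reads of the 9 genes, 78 in the library labelled Gata12KO, 182 in SclKO and 114 in WT as the bounds imply, against 25588, 4697 and 7000 for Kdr. The ratio of Pgf to its receptor Flt1 was 0.0563 in the library labelled Gata12KO (0.0435 to 0.0692), 0.779 in SclKO (0.654 to 0.904) and 0.299 in WT (0.241 to 0.357). The ratio of Vegfc to its receptor Flt4 was 0.317 in the library labelled Gata12KO (0.280 to 0.354), 1.39 in SclKO (1.23 to 1.55) and 0.537 in WT (0.467 to 0.607). Each ligand here is shorter than its receptor, so a trend of ratios with length does not cancel. That trend, library labelled Gata12KO against WT, was -0.31 for Pgf, 0.13 for Flt1, -0.20 for Vegfc and 0.10 for Flt4. Vegfd, the remaining VEGF ligand of these receptors and not among the 9 genes, was below 1 FPKM in every library. It had 0.198 FPKM in the library labelled Gata12KO, 0.759 in SclKO and 0.524 in WT.

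By role, the 3 kinase receptors summed to 128 FPKM in the library labelled Gata12KO, 44.5 in SclKO and 60.3 in WT, and Kdr held 75.3%, 71.2% and 69.8% of that sum. The 2 neuropilins summed to 57.1 FPKM in the library labelled Gata12KO, 139.9 in SclKO and 73.3 in WT. The 4 ligands had closer sums, 119.8, 108.6 and 118.1 FPKM in that order, but a different make-up, with Vegfa at 63.5%, 34.4% and 39.4% and Vegfb at 32.5%, 52.6% and 54.1%.

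For dependence on Scl, the SclKO library was set against WT. None of the 9 genes was called, where a call needs a 2-fold difference on the scale of FPKM with 1 added, at least 1 FPKM in any library and bounds that do not overlap. By that rule 2.12% of the 11080 expressed genes were higher and 4.24% lower, 6.36% in all. With libraries rescaled to the same summed FPKM over transcripts of at least 300 nt, a step that moved the median of expressed genes by 0.12, there were 331 higher and 382 lower genes in place of 235 and 470, and Nrp1 was called higher (log2 ratio 1.14). The bounds of 8 of 9 genes were nevertheless apart, all but Vegfb, with log2 ratios between -0.47 (Flt1) and 0.99 (Nrp1). The 3 kinase receptors lay between -0.47 and -0.40, Vegfa at -0.31 and Vegfb at -0.16, while Nrp1, Vegfc (0.77), Pgf (0.66) and Nrp2 (0.63) lay above 0. Vegfb turned to 0.06 when the trend of ratios with transcript length was removed. The median of the 9 genes was -0.16 and that of expressed genes -0.03.

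In the library labelled Gata12KO against WT, Kdr (log2 ratio 1.17) and Flt1 (1.08) were called higher and none of the 9 genes lower, beside 0.767% of expressed genes called higher, 3.75% called lower and 4.51% in all. The split over all genes, 85 higher and 415 lower, depended on scaling. It became 1166 and 97 with libraries rescaled to the same summed FPKM, 249 and 199 with that sum taken over transcripts of at least 300 nt, and 126 and 314 with median ratios. Kdr and Flt1 were called higher under each of these, and Vegfa was called higher too under the first (log2 ratio 1.38) and the second (1.00). Kdr stood at rank 68 and Flt1 at rank 87 from the highest of 11080 expressed genes. Vegfa followed at 0.70, rank 332, under the limit. Flt4 had 0.29 and Nrp2 0.16, where the bounds of Nrp2 overlapped and its entry of the highest mean alone had -1.40. Nrp1 (-0.56), Vegfb (-0.70), Vegfc (-0.36) and Pgf (-0.78) had lower values in the library labelled Gata12KO than in WT, of which Nrp1 and Vegfc turned to 0.12 and 0.21 when libraries were rescaled to the same summed FPKM, a step that moved the median of expressed genes by 0.58. For Pgf the added 1 FPKM weighs most, since its FPKM was 2.36-fold lower. The median of the 9 genes was 0.16 and that of expressed genes -0.08.

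Ratios of that comparison were higher for longer transcripts across 10992 genes, which are not independent replicates (Spearman 0.448). Against the trend at their own lengths, Kdr (5447 nt) kept a log2 ratio of 1.09 and Flt1 (6280 nt) 0.96, which ends the call of Flt1. Vegfa went to 0.67, Vegfb (1181 nt) to -0.27, Pgf (1569 nt) to -0.47, Vegfc (1881 nt) to -0.16, Nrp1 (5920 nt) to -0.66, Flt4 to 0.19 and Nrp2 to 0.01. Of the 4 genes below WT in the library labelled Gata12KO, only Nrp1 moved further from 0.

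**Figure D3:**
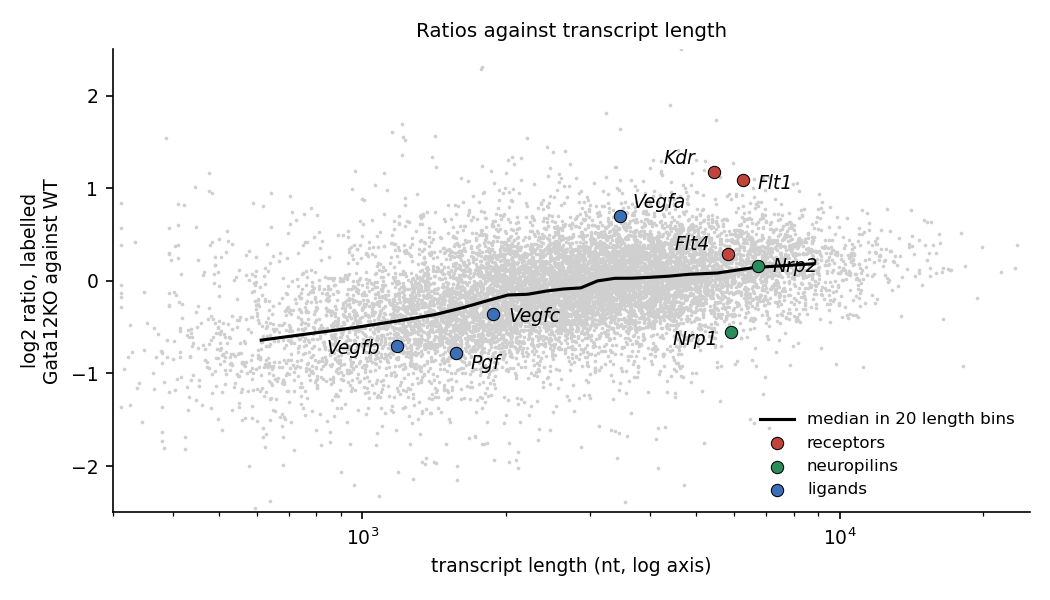
Log2 ratio of the library labelled Gata12KO against WT over transcript length (log axis) for 10992 expressed genes of 300 nt or longer (grey), with the 9 genes in colour by role and the median in 20 length bins as a line. Kdr and Flt1 lie above the line by 1.09 and 0.96, and Vegfb, Pgf and Vegfc lie at lengths where the line itself is below 0; 17 genes lie beyond the axis.

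In the library labelled Gata12KO against SclKO, 6 of 9 genes were called, 3 higher (Kdr 1.58, Flt1 1.55 and Vegfa 1.01) and 3 lower (Nrp1 -1.55, Pgf -1.44 and Vegfc -1.13), beside 3.38% of expressed genes called higher, 3.75% called lower and 7.14% in all. The calls of Vegfa and Vegfc lay close to the limit, and the 3 lower calls ended when libraries were rescaled to the same summed FPKM (Nrp1 -0.74, Vegfc -0.44, Pgf -0.89), which moved the median of expressed genes by 0.70 and the split over all genes to 1950 higher and 107 lower in place of 375 and 416, and under which Flt4 was called higher as well (1.47). With the sum over transcripts of at least 300 nt the split was 500 and 324. The remaining genes were Flt4 (0.72), Nrp2 (-0.47) and Vegfb (-0.54), with bounds apart but under the limit. Nrp2 and Vegfb turned to 0.32 and 0.26 with libraries rescaled to the same summed FPKM over all transcripts. With the sum over transcripts of at least 300 nt they had -0.31 and -0.38. With the entry of the highest mean in place of the sum, Vegfa had 0.25, which ends its call, and Nrp2 had -1.64, past the limit. This comparison shares each of its libraries with the others, so the 3 sets of ratios are not separate evidence.

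**Figure D4:**
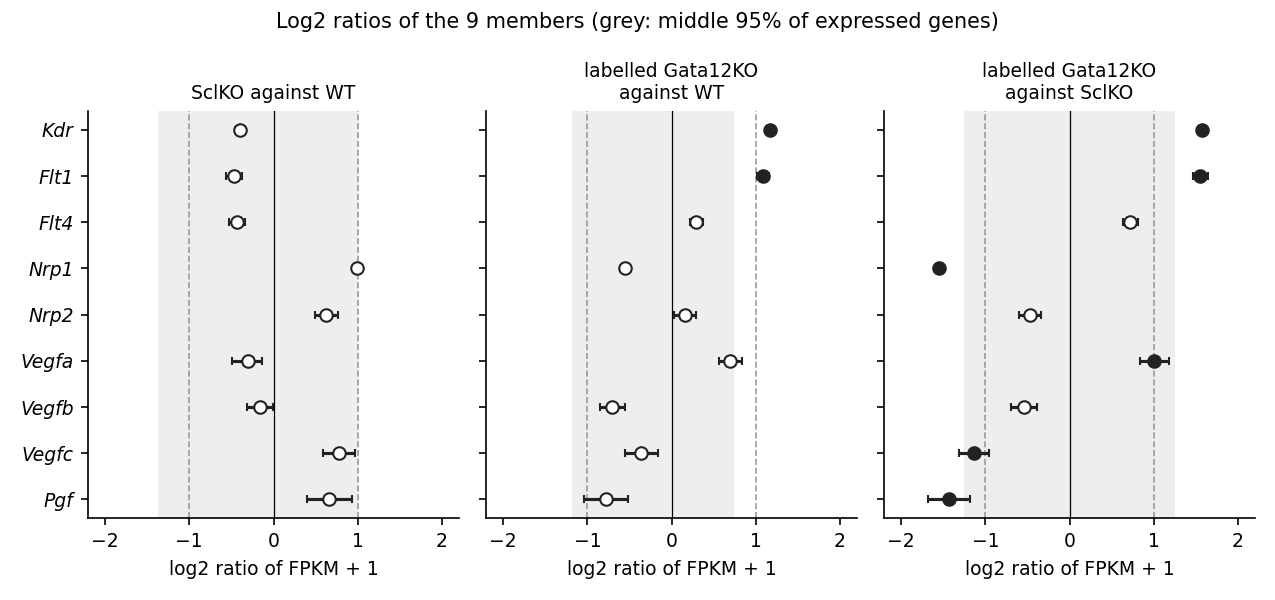
Log2 ratios of the 9 genes in the 3 comparisons, with ranges from the deposited bounds, filled points for called genes, dashed lines at the 2-fold limit and grey bands for the middle 95% of expressed genes. No point is filled in SclKO against WT, 2 are in the library labelled Gata12KO against WT and 6 in the library labelled Gata12KO against SclKO.

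**Figure D5:**
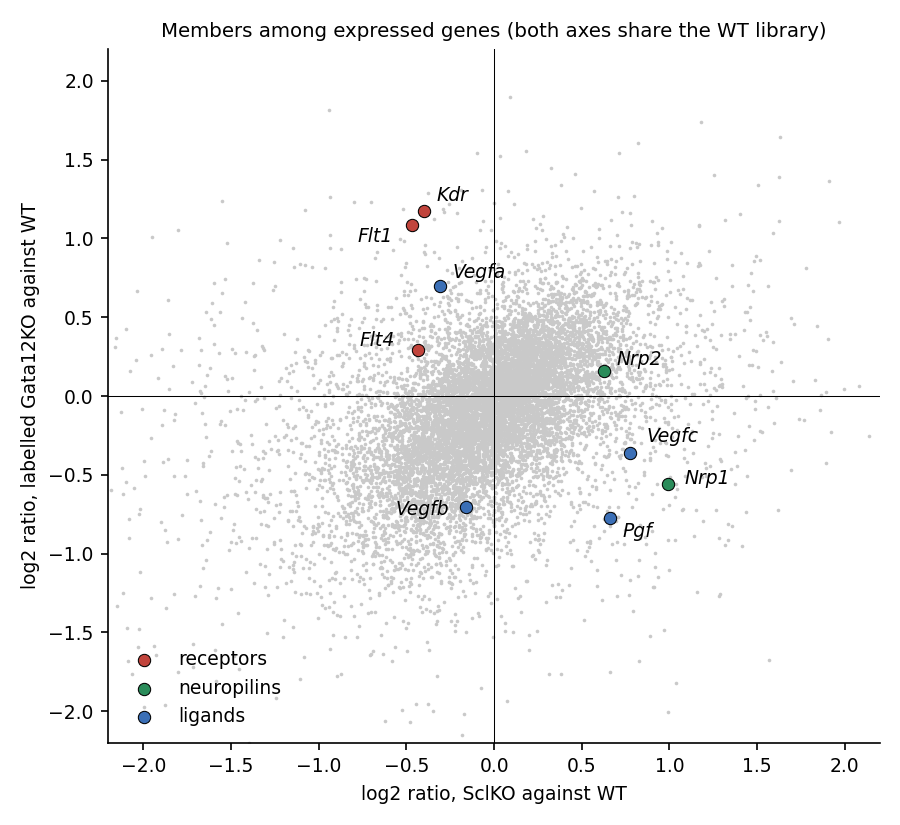
Log2 ratio of the library labelled Gata12KO against WT (y axis) over that of SclKO against WT (x axis), both set against the same WT library, for 10992 expressed genes of 300 nt or longer (grey) and the 9 genes in colour by role. Kdr, Flt1, Flt4 and Vegfa lie in the upper left and Nrp1, Vegfc and Pgf in the lower right; 114 genes lie beyond the axes.

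Among 6190 genes with at least 5 FPKM in every library, Flt1 was the gene nearest to Kdr by its pair of ratios against WT, at a Euclidean distance of 0.11 on the log2 scale. Gbe1 (0.30), Pcgf5 (0.35), Ets1 (0.37) and Phf6 (0.37) came next, and Vegfa was the 13th nearest (0.49). Nearest to Vegfa were Tjp1 (0.05), Btg1 (0.07), Snx9 (0.07), Ccng2 (0.08) and Fstl1 (0.09). These distances rest on 3 libraries and describe likeness alone.

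Other VEGF pathway genes were taken from fixed lists. Of all expressed genes, 2.12% were called higher and 4.24% lower in SclKO against WT. The shares were 0.767% and 3.75% in the library labelled Gata12KO against WT, and 3.38% and 3.75% in that library against SclKO. Whether calls in the lists that follow exceed these shares was not tested. Among 10 expressed of 12 receptor partners and phosphatases, 3 were lower in SclKO than in WT and 0 higher, and the same 3 were higher in the library labelled Gata12KO than in SclKO. They were Cdh5 (141 FPKM in the library labelled Gata12KO, 42.9 in SclKO and 116 in WT), Ptprb, the phosphatase VE-PTP of endothelial receptors (8.89, 1.17 and 7.05 FPKM), and Ptpn6, a phosphatase best known from blood cells (5.22, 1.85 and 6.03 FPKM). Against WT, 0 of these 10 were called in the library labelled Gata12KO, with a list median of 0.09, and the median was 0.06 in SclKO against WT.

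Of 40 intracellular signalling genes 36 were expressed, and 2 were called lower in SclKO than in WT, beside 4.24% of all expressed genes. They were Nos3, the endothelial nitric oxide synthase (21.4 FPKM in the library labelled Gata12KO, 2.31 in SclKO and 17.7 in WT), and Nfatc1, a calcineurin-driven factor (22.2, 4.01 and 13.7 FPKM). Against WT in the library labelled Gata12KO, Plcg1, the phospholipase that VEGFR2 recruits, was higher (14.5 FPKM in the library labelled Gata12KO, 7.76 in SclKO and 6.42 in WT) and Hspb1, a small heat shock protein on the p38 branch, was lower (2.24, 7.78 and 12.5 FPKM). Relative to SclKO, that library had Nos3 and Nfatc1 higher and Hspb1 and Pik3r2, a regulatory subunit of PI3-kinase (3.07 FPKM in the library labelled Gata12KO, 7.55 in SclKO and 3.53 in WT), lower. The list medians were 0.07 in the library labelled Gata12KO against WT and -0.07 in SclKO against WT, beside -0.08 and -0.03 over expressed genes.

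Of 15 transcripts known to respond to VEGF, 11 were expressed, with medians of 0.10 in the library labelled Gata12KO against WT and -0.39 in SclKO against WT. In SclKO against WT, Angpt2, a Tie2 ligand (1.06 FPKM in the library labelled Gata12KO, 3.00 in SclKO and 0.774 in WT), was higher and the homeobox factor Hhex (35.8, 8.67 and 37.9 FPKM) lower. The library labelled Gata12KO had Dusp5, a phosphatase of nuclear ERK (3.34 FPKM in the library labelled Gata12KO, 1.52 in SclKO and 0.424 in WT), higher than WT and 0 lower. Compared with SclKO it had Hhex, the Notch ligand Dll4 (2.25 FPKM in the library labelled Gata12KO, 0.337 in SclKO and 1.20 in WT) and Apln (1.54, 0.108 and 0.886 FPKM) higher, and the homeobox factor Hlx (2.42, 6.53 and 2.84 FPKM) lower.

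Vegfa is a target of hypoxia-inducible factors, so genes of oxygen sensing were set beside it. Of 9 expressed among 10 genes of oxygen sensing, such as Hif1a, Epas1 and the Egln hydroxylases, 0 were called in any of the 3 comparisons, with medians of 0.02 in the library labelled Gata12KO against WT and -0.11 in SclKO against WT. Of 18 transcripts known to rise in hypoxia 17 were expressed. Relative to WT the library labelled Gata12KO had 3 of them called higher and 0 lower, beside 0.767% and 3.75% of expressed genes. Their median was 0.53 beside -0.08 over expressed genes. The 3 were Ero1a, an oxidase of the endoplasmic reticulum (103 FPKM in the library labelled Gata12KO, 28.8 in SclKO and 27.0 in WT), the hexokinase Hk2 (16.7, 11.0 and 4.29 FPKM) and the enolase Eno1 (130.8, 174.1 and 25.5 FPKM), whose near-identical copies make its value uncertain. Against SclKO that library had 5 higher and 0 lower, namely Ero1a, Pdk1, Adm, Ankrd37 and Pgk1, beside 3.38% and 3.75% of expressed genes. Hk2 and Eno1 were called higher in SclKO than in WT, and Pgk1 (944 FPKM in the library labelled Gata12KO, 405 in SclKO and 906 in WT) and Ankrd37 (23.9, 9.63 and 23.8 FPKM) were called lower there. Any tie between these levels and Vegfa was not tested.

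Partners of the neuropilins and the processing genes of VEGF-C had no calls. Of 13 plexin, semaphorin and adaptor genes 6 were expressed and 0 were called in the 3 comparisons, with Plxnd1 (30.6 FPKM in the library labelled Gata12KO, 17.7 in SclKO and 18.8 in WT) and the adaptor Gipc1 (56.8, 87.3 and 114 FPKM) among them. Their median was -0.05 in the library labelled Gata12KO against WT and 0.38 in SclKO against WT. Of 6 genes that supply or process VEGF-C and VEGF-D 4 were expressed and 0 called, with Furin, a protease that cleaves VEGF-C, at 28.3 FPKM in the library labelled Gata12KO, 49.4 in SclKO and 29.0 in WT. Their median was -0.20 in the library labelled Gata12KO against WT and 0.37 in SclKO against WT.

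The 9 erythroid markers summed to 9.83 FPKM in the library labelled Gata12KO, 0.641 in SclKO and 183 in WT. The 8 megakaryocyte and leukocyte markers summed to 23.2, 1.22 and 43.6 FPKM in that order, and Itga2b, the CD41 gated out in the sort, had 17.6, 0.333 and 22.8 FPKM of these. Ptprc and Csf1r were listed at 0 in SclKO and WT. Both sums were highest in WT, and of the 9 VEGF genes Vegfb alone had its highest value there, with bounds that overlapped those of SclKO.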

How the data were processed

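The sort, RNA and library steps are as the labels' protocols give them: total RNA of sorted cells, a Nugen Encore Complete kit and 50 nt reads. The deposited values are FPKM with a lower and an upper confidence bound for each of 30123 RefSeq entries per library, written by Cufflinks per the file headers' source column. Per the submitters' processing notes, TopHat2 2.0.4, Cufflinks 2.0.1 and Cuffdiff were used, with the builds mm9 and hg19, and no roles are stated; coordinates from the files are printed as mm9. Whether counting used strand was not stated. Accessions were named from RefSeq (29063 of 29646) and GENCODE (173), and entries were joined by exon structure, which left out 134 entries whose symbols then differed. Gene values and bounds are sums over entries. A log2 ratio compares FPKM after 1 was added to each value, which makes changes of low genes look smaller. Fragments behind each value and library totals were derived from the bounds, taken as 2 Poisson standard deviations from the FPKM. Not all entries fit that reading. Ranges of ratios combine both bounds as roots of summed squares. Trends with length are medians in 20 bins. The call rule was tested on simulated Poisson counts with planted changes. These hold no variation between replicate libraries, so they cannot show how often the rule errs on these libraries. The 9 genes and the 13 other lists were chosen with earlier results of these data known. Of the lists, genes called in any comparison and up to 4 with the largest ratios could be named. Alternatives covered the added constant, the filter, the fold limit, 3 scalings, length, entries and bounds. Python 3.11.15, numpy 2.4.6, scipy 1.17.1 and matplotlib 3.10.9 were used.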

Additional observations from a re-analysis of the deposited data

How the results depend on the processing

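No paired analysis was possible because each genotype has 1 library, and no library could be left out. Of 27 log2 ratios (9 genes in 3 comparisons), 7 changed sign under at least 1 of 13 alternatives, and none of the 8 called ratios did. In SclKO against WT, the count of higher genes went from 0 to 1 (Nrp1) with a pseudocount of 0.1, with scaling by median ratios and with scaling to the summed FPKM of transcripts with at least 300 nt, and to 4 (Nrp1, Nrp2, Vegfc and Pgf) at a 1.5-fold limit. In the library labelled Gata12KO against WT, the count of higher genes was 2 as reported, 1 (Kdr) with a pseudocount of 5 and after the length trend was removed, and 0 at a 3-fold limit. Among the 11080 expressed genes, 85, 22, 154 and 16 were higher in that order. The count of lower genes was 0 as reported, 1 (Pgf) with a pseudocount of 0.1, 2 (Vegfb and Pgf) at a 1.5-fold limit and 1 (Nrp2, log2 ratio -1.40) when the entry with the highest mean stood for the gene. Over all expressed genes 415, 714, 1550 and 512 were lower in that order, of 11080 genes and for the last setting of 11011. In the library labelled Gata12KO against SclKO, the 3 higher genes became 0 at a 3-fold limit, beside 145 in place of 375 over all expressed genes. The 3 lower genes became 1 (Nrp1) with a pseudocount of 5, 0 at a 3-fold limit and 0 with scaling to the summed FPKM. Over all expressed genes 161, 121 and 107 were lower in that order, in place of 416. Scaling to the summed FPKM brought the calls over all genes in the library labelled Gata12KO against WT to 1166 higher and 97 lower, in place of 85 and 415, and removal of the length trend brought them to 154 and 170. The cause of these changes was not tested. Depth limits Pgf most, with 78 implied reads in the library labelled Gata12KO.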
